A study of Mus musculus with 8 samples.

Results

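RNA levels of 28 genes of cholesterol synthesis and its regulation were examined in mouse lens fiber cells (FC), of 35275 genes listed with FPKM (fragments per length of gene and per reads sequenced). The genes were taken by symbol from a fixed list, which comprised 20 enzymes from acetyl-CoA to cholesterol, 5 regulators and 3 sterol transport proteins. All 28 were listed, and all 28 reached the minimum for a test, a group mean of 1.0 FPKM or more in untreated or in CS-exposed mice, as did 9794 genes in all. The libraries were made from C57BL/6 mice, which the study's methods name as C57BL/6J. In those methods the dams entered a whole-body cigarette smoke (CS) chamber shortly before giving birth, and the CS-exposed pups stayed under smoke for 5 hours a day on 5 days a week over 3.5 months. The untreated control (Ct) mice were of the same age and were kept in the animal facility. Each group gave 4 libraries, each from FC of the right eyes of a pool of 4 mice, dissected off the epithelium, so a value is an average over mice. Male and female pools were both used, and the labels do not say which library is which. The comparison asks whether months of smoke exposure changed the RNA levels of these genes.

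Cholesterol is built from acetyl-CoA through mevalonate, the isoprenoid diphosphates, squalene and lanosterol. Transcription of most of the enzymes is driven by the sterol regulatory element-binding proteins (SREBPs), which are escorted from the endoplasmic reticulum by SCAP when sterols are low and are held there by the INSIG proteins when sterols are high. The plasma membranes of lens FC are among the most cholesterol-rich membranes known, the lens makes much of this cholesterol itself, and loss of lanosterol synthase causes cataract.

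Promoter stretches of 3 members are given because they carry the letters through which SREBPs and their partners are known to act. RefSeq windows (GRCm38.p6), each from 250 bases before the start of a transcript into its first bases, were at hand for 23 of the 28 members. Fdps, Fdft1, Sqle, Stard4 and Npc1 had none. Both strands were searched for TCACNCCAC, a sterol regulatory element, for its shorter form TCACNCCA, which it contains, for CCAAT, the box of NF-Y, and for GGGCGG, the GC box of Sp1. Hmgcs1 was the 1 member with the longer element. The shorter form was also found in Srebf2 and Msmo1. Srebf2, the gene of a SREBP, and Insig1, the member with the highest level, were added after the values had been seen. Each stretch is on the plus strand and ends before the first annotated exon. In Hmgcs1 and Srebf2 the capitals mark the sterol element and the boxes of NF-Y, which lie on the minus strand and so read ATTGG, while GC boxes are left unmarked. In Insig1 the capitals mark the NF-Y box and the GC boxes on either strand:
Hmgcs1, chr13:119690101-119690350: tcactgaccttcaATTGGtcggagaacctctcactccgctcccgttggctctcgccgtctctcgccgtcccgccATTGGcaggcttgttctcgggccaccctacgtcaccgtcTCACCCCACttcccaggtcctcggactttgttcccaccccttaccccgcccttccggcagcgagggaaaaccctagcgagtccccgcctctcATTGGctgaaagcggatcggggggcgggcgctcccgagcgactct
Srebf2, chr15:82147019-82147180: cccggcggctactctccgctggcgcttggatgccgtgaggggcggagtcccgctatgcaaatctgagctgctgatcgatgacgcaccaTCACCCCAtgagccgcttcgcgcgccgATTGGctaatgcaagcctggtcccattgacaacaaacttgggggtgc
Insig1, chr5:28071162-28071362: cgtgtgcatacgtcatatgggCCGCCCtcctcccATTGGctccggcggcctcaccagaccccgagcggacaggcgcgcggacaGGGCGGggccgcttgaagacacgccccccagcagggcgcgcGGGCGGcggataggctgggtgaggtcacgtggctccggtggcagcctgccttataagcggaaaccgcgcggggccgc
In Hmgcs1 the sterol element begins at position -137 from the transcript start, with CCAAT boxes at -237, -176 and -45. In Srebf2 the shorter element begins at -162 and a CCAAT box at -135. Insig1 had a CCAAT box at -216 between GC boxes at -229, -167 and -126, and neither form of the sterol element in this window. The longer element occurred in 1.24% of all 32851 windows and the shorter form in 4.36%. CCAAT was found in 22 of 31 member windows (71.0%), against 37.4% of all windows and 38.1% of the windows of tested genes. The GC box was found in 25 of 31 member windows (80.6%), against 35.7% of all windows and 64.5% of those of tested genes. These letters are described only, and binding was not measured.

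The levels of the members spanned a 54.8-fold range of mean FPKM over the 8 libraries, and their median sat at the 51.8th percentile of the tested genes, so that as a list they were neither high nor low in FC. Insig1 had the highest level, with 88.1, 110, 92.8 and 105 FPKM in the untreated Ct libraries and 93.4, 106, 103 and 101 FPKM in the CS-exposed ones. The groups overlapped, and the lowest and the highest library were both untreated. Fdps, which makes farnesyl diphosphate, followed at a mean of 47.9 FPKM, then Srebf1 at 39.8, Pmvk at 31.7, Fdft1 at 23.9 and Hmgcs1 at 22.6 FPKM. In all, 12 members had a mean of at least 10 FPKM, and 15 were under 5 FPKM. Acat2, which joins 2 molecules of acetyl-CoA, and Stard4, a cytosolic sterol carrier, were the lowest, at 1.82 and 1.84 FPKM. FPKM is scaled to gene length, but the annotation that set the lengths is not given, so these levels can be set side by side only roughly. The order of genes as close as Acat2 and Stard4 also lies within the spread between libraries. Another annotated gene shares exon bases with 12 members, most of all with Fdps, where 26.7% are shared with Gm43738 on the same strand.

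**Figure D1:**
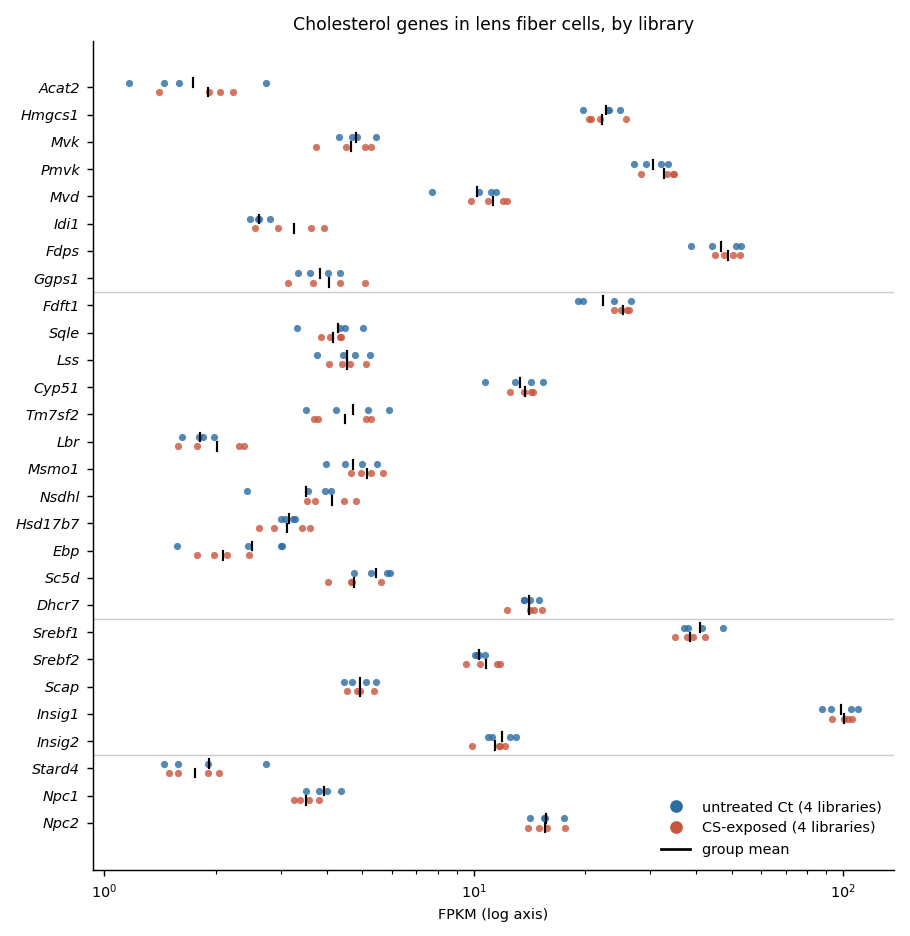
FPKM of each of the 28 genes (log axis) in the 4 untreated Ct libraries (blue) and the 4 CS-exposed libraries (red), with the group mean as a black bar; horizontal lines separate mevalonate and isoprenoid enzymes, squalene and sterol enzymes, regulators and transport proteins. The points of both groups overlap in every gene, from about 100 FPKM for Insig1 down to under 2 FPKM for Acat2 and Stard4.

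The members differed more between libraries of the same group than counting alone gives. The within-group SD on the log2 scale was 0.10 to 0.40, with a median of 0.168, the same as over all tested genes (0.168). In all 28 members it exceeded the SD expected from read counts, by 1.63 times (Scap) to 6.21 times (Insig1). For Insig1 the SD from read counts was only 0.019, beside a within-group SD of 0.12. How many of all tested genes exceed theirs was not counted, so this is not a trait of the members. Ct replicate 3 stood apart in the enzymes. In Ct replicate 3, 11 of the 20 enzymes had their lowest level of the 8 libraries, where 13.3% of all tested genes had theirs. These were Acat2, Hmgcs1, Mvd, Idi1, Fdps, Fdft1, Sqle, Lss, Cyp51, Msmo1 and Nsdhl. None of the 8 regulators and transport proteins was lowest there. The median enzyme lay 0.20 below its own mean of the 8 libraries on the log2 scale in Ct replicate 3, while in the other 7 libraries the median enzyme lay between -0.01 and 0.08. Against the mean of the other 3 untreated libraries, Mvd had 7.72 instead of 11.0 FPKM there, Cyp51 10.7 instead of 14.2 FPKM and Sqle 3.33 instead of 4.62 FPKM. Not all enzymes moved this way, since Sc5d was highest there at 5.93 FPKM and Ebp stood at 3.01 FPKM, close to its highest value of 3.03. Srebf1 was also highest there. Ct replicate 3 had the deepest sequencing, 1.17 relative to the first library where the others had 0.910 to 1.16. Of its 9 markers of lens epithelium, 7 were the highest of the 8 libraries too (not Itga6 and Mki67), with Foxe3 at 64.0 FPKM where the other 7 libraries had 17.5 to 34.8, and the summed level of the 9 was 641 FPKM where the others had 326 to 474. The part of epithelial RNA in the enzyme levels was not tested. Without Ct replicate 3, the median log2 fold change of the enzymes, CS-exposed against untreated Ct, went from 0.06 to -0.004, where leaving out any other library gave 0.040 to 0.099, the highest without Ct replicate 1. Those of Fdps, Lss and Cyp51 turned, without Ct replicate 3, from 0.07, 0.01 and 0.05 to -0.01, -0.08 and -0.05, and 0 of 28 members had an unadjusted p under 0.05 (limma), where 4.28% of the tested genes did.

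**Figure D2:**
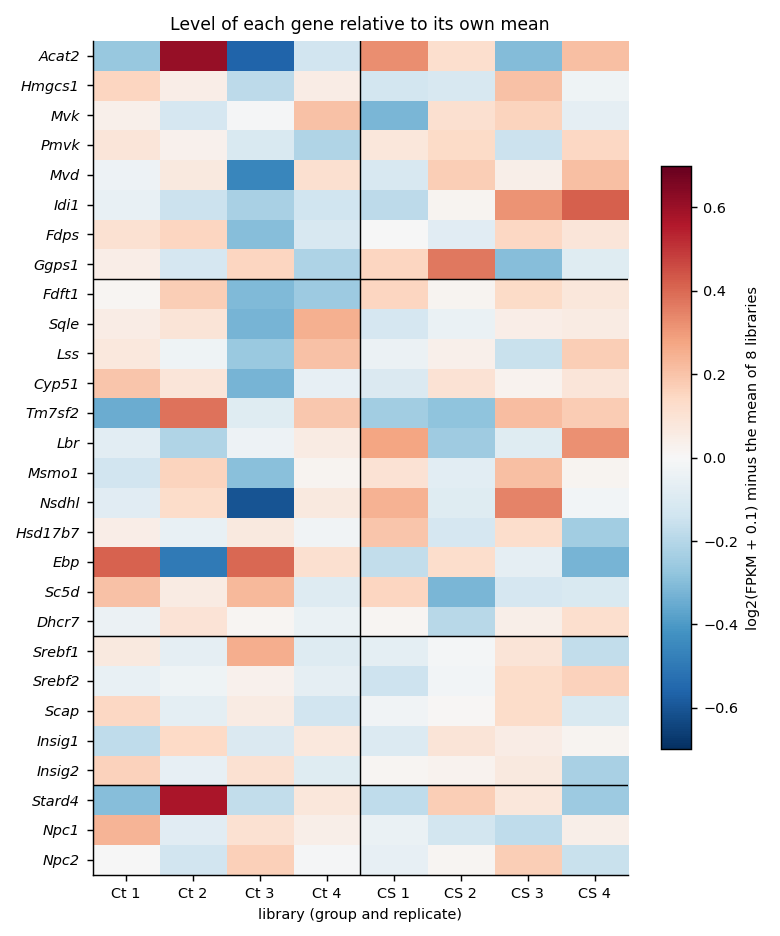
Level of each gene (rows) in each library (columns) as log2(FPKM + 0.1) minus its own mean over the 8 libraries; red is above and blue below the mean, and the vertical line separates untreated Ct from CS-exposed libraries. The column of Ct replicate 3 is blue for most enzymes, down to -0.60 for Nsdhl, and red for Ebp, Sc5d and Srebf1.

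**Figure D3:**
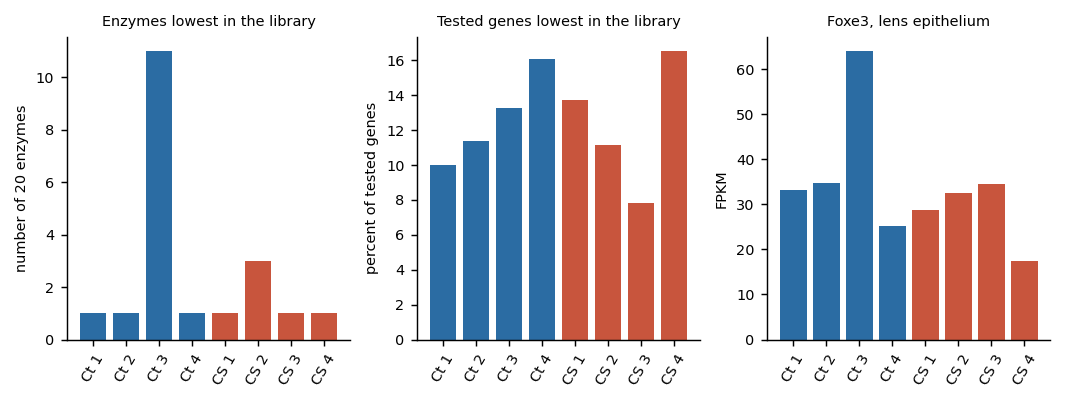
For each library, the number of the 20 enzymes whose lowest level was in that library (left), the percent of all tested genes with their lowest level there (middle) and the FPKM of Foxe3, a lens epithelium gene (right); blue bars are untreated Ct and red bars CS-exposed. Ct replicate 3 holds 11 of the enzymes but 13.3% of the tested genes, and its Foxe3 is 64.0 FPKM.

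The libraries were FC by their markers, and markers of other cell types were present at far lower levels. Lens fiber markers, crystallins above all, summed to 271040 to 279198 FPKM over 12 genes in untreated Ct libraries and to 261860 to 274562 FPKM in CS-exposed libraries. Markers of rods summed to 10.6 to 27.7 and 31.5 to 88.2 FPKM over 10 genes, and 8 of them were higher in every CS-exposed library than in every untreated one. Markers of the retinal pigment epithelium summed to 0.922 to 1.85 and 2.70 to 25.6 FPKM over 6 genes, with Best1 at 0 in every library. Sums were 0.348 to 2.61 and 0.425 to 6.52 FPKM for 5 genes of pigmented cells and 0.328 to 2.42 and 0.773 to 23.0 FPKM for 8 genes of blood and immune cells. The highest sums of the pigmented and of the blood cell genes were both in CS replicate 4, and those of the other CS-exposed libraries reached 0.608 and 4.69 FPKM, while that of the retinal pigment epithelium was in CS replicate 3, beside 5.88 FPKM in the others. For 6 genes of smooth muscle and fibroblasts the sums were 281 to 330 and 303 to 327 FPKM, of which Acta2 made up 268 to 316 FPKM over all libraries and Pdgfrb 12.1 to 14.6 FPKM, while Myh11, Des, Col1a1 and Dcn were each at 0.302 FPKM or lower. Their part in the levels of the members was not tested.

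No member passed the test. With limma on log2(FPKM + 0.1), 0 of 28 members had an adjusted p under 0.05 (0.0102% of all tested genes, 1 gene, did), and 0 of 28 had an unadjusted p under 0.05, where 4.83% of the tested genes did. With limma-voom on recovered reads, 1 member, Fdft1, had an unadjusted p under 0.05, where 4.95% of the tested genes did. In 0 of 28 members did the groups fail to overlap, against 3.08% of the tested genes. The log2 fold changes of CS-exposed against untreated Ct ran from -0.22 (Ebp) to 0.28 (Idi1), with 15 above 0 and 13 below. Their median was 0.0045, beside 0.0043 over all tested genes. Unadjusted p ran from 0.0692 to 0.979, and the smallest adjusted p was 0.956. Standard errors lay between 0.072 and 0.24, and the 95% intervals of 24 of the 28 members (85.7%) stayed inside a 1.5-fold change in either direction, as did those of 79.0% of all tested genes. The 4 members whose intervals reached past it were Acat2, Idi1, Nsdhl and Ebp. Without Ct replicate 3, the intervals of Acat2 (-0.51 to 0.54) and Nsdhl (-0.21 to 0.37) lay inside it and that of Stard4 (-0.65 to 0.32) did not. Fewer cells of a type and less RNA per cell cannot be told apart in such pools.

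**Figure D4:**
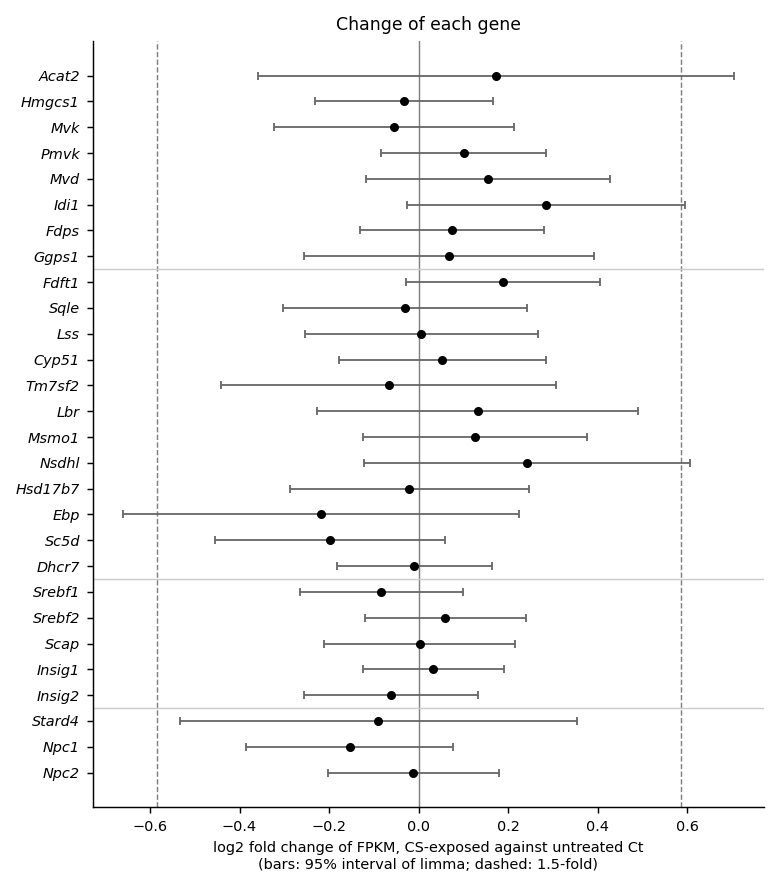
log2 fold change of FPKM between CS-exposed and untreated Ct libraries (x axis) for each gene, with 95% intervals from limma; the dashed lines mark a 1.5-fold change. Every interval includes 0, and those of Acat2, Idi1, Nsdhl and Ebp cross a dashed line.

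Among the 8 enzymes of the mevalonate and isoprenoid steps, 6 had log2 fold changes above 0 and 2 below, 4 changed sign in a fit that left out 1 library, and 0 passed the test. Idi1, which interconverts the isoprenoid building blocks, came closest. Its level was 2.81, 2.61, 2.47 and 2.63 FPKM in untreated Ct mice and 2.55, 2.95, 3.64 and 3.92 FPKM in CS-exposed mice. Thus 3 CS-exposed libraries lay above every untreated one and the fourth among them, and the spread was wider in the CS-exposed group (SD 0.628 against 0.138 FPKM, n = 4 each). The log2 fold change was 0.28 with a standard error of 0.14 (limma, adjusted p = 0.956; two-sided exact permutation test, p = 0.114). Without CS replicate 1 it was 0.39, with an unadjusted limma p under 0.05, as 4.89% of all tested genes then had, and without CS replicate 4 it was 0.19. Hmgcs1, which makes HMG-CoA and whose promoter is given above, had 25.0, 23.2, 19.8 and 23.3 FPKM in untreated Ct libraries and 20.6, 20.8, 25.9 and 22.0 FPKM in CS-exposed libraries. The groups covered nearly the same range, and the fitted ratio was 0.978-fold with a 95% interval from 0.852 to 1.12. Fdps reached 51.3, 53.0, 38.7 and 44.2 FPKM in the untreated libraries and 47.6, 45.1, 52.8 and 50.5 FPKM in the CS-exposed ones. Its lowest and highest values were both untreated, and the fitted ratio was 1.05-fold (95% interval 0.913 to 1.21). Mvd, the decarboxylase that yields isopentenyl diphosphate, was at 10.4, 11.2, 7.72 and 11.5 FPKM in untreated mice and at 9.82, 12, 10.9 and 12.3 FPKM in CS-exposed mice. Here 1 untreated library, Ct replicate 3, stood below the other 7. Of the other enzymes of this stretch, Pmvk and Mvk, the successive kinases of mevalonate, had log2 fold changes of 0.10 and -0.06. Acat2 and Ggps1, which makes geranylgeranyl diphosphate for protein prenylation, had 0.17 and 0.07, and that of Acat2 was 0.016 without Ct replicate 3 and 0.41 without Ct replicate 2. Acat2 rested on only 61 to 122 reads per library and had the widest within-group SD of the members (0.40 on the log2 scale).

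The 12 enzymes from squalene to cholesterol divided evenly, with 6 log2 fold changes above 0 and 6 below, 6 changed sign in a fit that left out 1 library, and 0 passed the test. Fdft1, squalene synthase, which commits farnesyl diphosphate to sterols, was at 23.9, 26.8, 19.1 and 19.8 FPKM in untreated Ct libraries and at 26.3, 24.0, 26.0 and 25.0 FPKM in CS-exposed libraries. The 4 CS-exposed values lay close together inside the upper part of the untreated range. The log2 fold change was 0.19 with a standard error of 0.099 (limma, adjusted p = 0.956, and exact permutation test, p = 0.229). On recovered reads limma-voom also gave 0.19, and without Ct replicate 2 limma gave 0.28, both with an unadjusted p under 0.05, as 5.08% of all tested genes had without Ct replicate 2. Without Ct replicate 3 it fell to 0.12 and without Ct replicate 4 to 0.13. Of the exon bases of Fdft1, 18.3% are shared with Ctsb on the opposite strand, whose level was 12.3 to 15.0 FPKM with a log2 fold change of -0.05. Sc5d, the desaturase near the end of the pathway, had the smallest unadjusted p among the members with a log2 fold change below 0. Its level was 5.84, 5.27, 5.93 and 4.74 FPKM in untreated mice and 5.63, 4.02, 4.66 and 4.69 FPKM in CS-exposed mice. In 3 CS-exposed libraries it lay below every untreated one, and the log2 fold change was -0.20 with a standard error of 0.12 (limma, adjusted p = 0.956, and exact permutation test, p = 0.143). Without CS replicate 1 it was -0.28, with an unadjusted limma p under 0.05, and without CS replicate 2 it was -0.12. Nsdhl, an X-linked enzyme of sterol demethylation, had 3.55, 4.11, 2.44 and 3.95 FPKM in untreated libraries and 4.46, 3.54, 4.81 and 3.71 FPKM in CS-exposed ones, again with Ct replicate 3 as the lowest of all. Its log2 fold change was 0.24, and 0.082 without that library. Ebp, the X-linked sterol isomerase, had 3.03, 1.57, 3.01 and 2.44 FPKM in untreated libraries and 1.98, 2.46, 2.15 and 1.78 FPKM in CS-exposed ones. Its untreated values alone spanned the whole range, on 54 to 122 reads per library. Without Ct replicate 2, the lowest, its log2 fold change went from -0.22 to -0.42, with an unadjusted limma p under 0.05, and without Ct replicate 1 or Ct replicate 3 it was -0.12. Sqle, the squalene epoxidase, Lss, which closes lanosterol, and Cyp51, the lanosterol demethylase, had log2 fold changes of -0.03, 0.01 and 0.05. Those of Msmo1 and Hsd17b7, which act with Nsdhl, were 0.13 and -0.02. Dhcr7, which makes cholesterol in the last step, had a mean of 14.2 ± 0.651 FPKM in untreated mice (SD, n = 4) and 14.1 ± 1.29 FPKM in CS-exposed mice (SD, n = 4), a ratio of 0.993 with a 95% interval from 0.881 to 1.12.

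The regulators varied least within the groups, with a median SD of 0.12 on the log2 scale where the lists of the other members had 0.13 to 0.19. All 5 had 95% intervals inside a 1.5-fold change, 3 log2 fold changes were above 0 and 2 below, and 0 passed the test. Insig1 had a ratio of 1.02 with a 95% interval from 0.918 to 1.14. Insig2, its paralogue, was at 13.0, 11.2, 12.5 and 10.9 FPKM in untreated Ct mice and at 11.7, 11.8, 12.2 and 9.92 FPKM in CS-exposed mice, and the ranges overlapped. Srebf1, the SREBP gene better known for fatty acid synthesis, was at 41.6, 38.0, 47.4 and 37.2 FPKM in untreated mice and at 37.9, 39.2, 42.3 and 35.1 FPKM in CS-exposed mice. Its highest library was Ct replicate 3, and the log2 fold change was -0.08 with a standard error of 0.083, and -0.012 without that library. Srebf2, the SREBP gene better known for cholesterol synthesis, was at 10.2, 10.3, 10.8 and 10.1 FPKM in untreated mice and at 9.53, 10.4, 11.6 and 11.8 FPKM in CS-exposed mice. The untreated values were nearly equal and lay inside the CS-exposed range. Scap, the escort of the SREBPs, had a mean of 4.92 FPKM in both groups, with an SD of 0.434 in the untreated and of 0.347 in the CS-exposed libraries (n = 4 each). SREBPs and INSIGs are set largely by cleavage, binding and degradation of the proteins, which RNA levels do not measure.

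Next, 4 ratios of log2(FPKM + 0.1) within a library, in which the scaling of the library enters only through the pseudocount, were compared between the groups. Insig1 stood at 8.23 times the level of Insig2 in untreated Ct libraries and 8.79 times in CS-exposed libraries, with single libraries from 6.73 to 10.1. The log2 ratio was 3.04 ± 0.267 (SD, n = 4) and 3.14 ± 0.149 (SD, n = 4), and the difference of 0.09 was smaller than either spread (two-sided exact permutation test, p = 0.543). Srebf1 stood at 3.92 times Srebf2 in untreated libraries and 3.55 times in CS-exposed libraries, with a difference of the log2 ratio of -0.14 (exact permutation test, p = 0.257). Tm7sf2 and Lbr encode sterol reductases of the same step, and Lbr also tethers chromatin to the nuclear envelope. Tm7sf2 stood at 2.48 times Lbr in untreated and 2.16 times in CS-exposed libraries, a log2 difference of -0.20 (exact permutation test, p = 0.457). Of the exon bases of Tm7sf2, 12.1% are shared with Vps51 on the same strand, whose level was 2.96 to 4.65 FPKM with a log2 fold change of 0.31 and an unadjusted limma p under 0.05. Npc1 was at 0.254 of the level of Npc2 in untreated and 0.230 in CS-exposed libraries, a log2 difference of -0.14 (exact permutation test, p = 0.343). Adjusted over the 4 ratios, each p was 0.543, where the smallest p that 70 assignments allow is 0.0286 before adjustment.

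**Figure D5:**
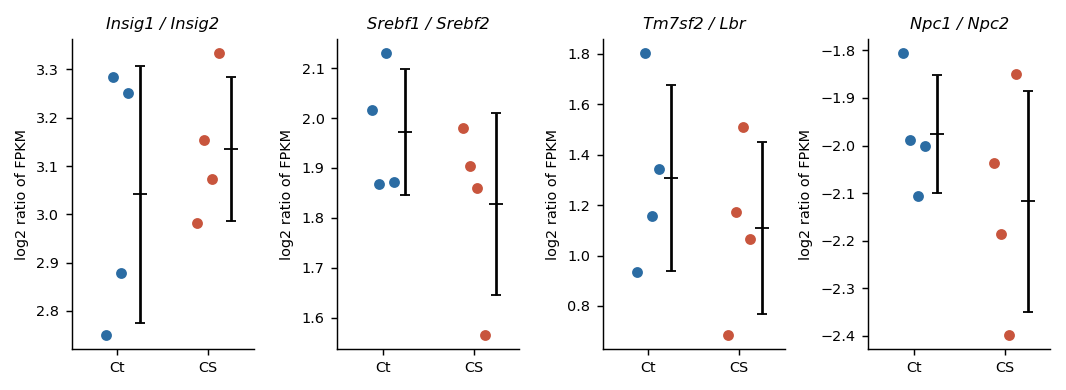
log2 ratio of the FPKM of paired genes within each library, for untreated Ct (blue) and CS-exposed (red) libraries, with the mean and SD of each group (n = 4) in black; each panel has its own y axis, which does not start at 0. The groups overlap in all 4 panels.

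Of the 3 transport proteins, 0 passed the test. Their log2 fold changes lay below 0, as did those of 4775 of the 9794 tested genes, but only that of Npc1 stayed there in every fit with 1 library left out: Stard4 had 0.086 without Ct replicate 2, and Npc2 had 0.042, 0.0049 and 0.038 without Ct replicate 3, CS replicate 1 and CS replicate 4. Npc1, the lysosomal membrane protein that exports cholesterol, was at 4.39, 3.51, 4.005 and 3.81 FPKM in untreated Ct mice and at 3.59, 3.39, 3.27 and 3.82 FPKM in CS-exposed mice. In 2 CS-exposed libraries it was below every untreated one, and the log2 fold change was -0.15 with a standard error of 0.11 (limma, adjusted p = 0.956, and exact permutation test, p = 0.143). Npc2, its soluble partner in the lysosome, was at 15.6, 14.2, 17.6 and 15.6 FPKM in untreated mice and at 15.0, 15.8, 17.6 and 14.03 FPKM in CS-exposed mice, with nearly the same range in both groups. Stard4 had 1.45, 2.73, 1.59 and 1.91 FPKM in untreated libraries and 1.58, 2.05, 1.91 and 1.496 FPKM in CS-exposed libraries, and Ct replicate 2 was the highest.

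The neighbours of the pathway were counted in 5 further lists of 69 genes, of which 68 were listed and 57 tested. Of these, 0 had an unadjusted p under 0.05 and a higher level in CS-exposed mice, where 2.75% of the tested genes did. A lower level with such a p was found in 1, where 2.08% of the tested genes had one. The 1 gene was Fasn, the fatty acid synthase and a target of SREBPs, at 17.3, 15.97, 17.5 and 15.5 FPKM in untreated Ct mice and at 14.1, 15.6, 13.8 and 14.1 FPKM in CS-exposed mice. In 3 CS-exposed libraries it lay below every untreated one, the log2 fold change was -0.20 with a standard error of 0.070, and it did not pass adjustment (limma, adjusted p = 0.956). By the exact permutation test, p was 0.0571. None of the other 10 tested genes of fatty acid synthesis passed, and the most abundant of them, the desaturases Scd2 and Fads1, had means of 401 and 53.9 FPKM in untreated and 411 and 55.4 FPKM in CS-exposed mice. Of the other enzymes and redox partners of the pathway, 0 of 8 passed. Their log2 fold changes ran from -0.37 to 0.08, with 3 above 0 and 5 below. The most abundant of them, Por and Cyb5r3, which hand electrons to the oxidases, had 0.08 and 0.06. Of the genes of SREBP cleavage and sterol-regulated degradation, 0 of 11 passed. Their log2 fold changes ran from -0.18 to 0.35, with 3 above 0 and 8 below, and Vcp, which extracts proteins from the membrane, had 0.04. Of uptake, efflux, storage and oxysterol sensing, 0 of 15 passed, with log2 fold changes from -0.15 to 0.13, 9 above 0 and 6 below. Lrpap1, a chaperone of lipoprotein receptors, had 0.02 and Osbp, an oxysterol-binding protein, 0.00. Of the genes that use isoprenoids, 0 of 12 passed, with log2 fold changes from -0.20 to 0.33, 9 above 0 and 3 below. For Rabggtb, which prenylates Rab proteins, the log2 fold change was 0.15, and 0.10 to 0.21 with a library left out (lowest without Ct replicate 3 and highest without Ct replicate 2). For Rce1, a protease that processes prenylated proteins, it was 0.33, and 0.20 to 0.42 with a library left out (lowest without Ct replicate 2 and highest without Ct replicate 4). The unadjusted limma p was under 0.05 in 4 of 18 alternatives for Rabggtb and in 6 of 18 for Rce1, which was named after its values were seen. For Fnta, a subunit of the farnesyl transferase, the log2 fold change was 0.06.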

How the data were processed

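RNA of lens FC was compared between 4 libraries of CS-exposed and 4 of untreated mice, grouped by the sample labels. Per the submitters' processing notes, reads were aligned to GRCm38 with STAR 2.5 and counted with HTSeq 0.6.1. The authors converted the counts to FPKM, and these FPKM were deposited. The annotation release and the strand setting are not given in the sources used here, so reads of overlapping genes, which 12 members have, may be split or lost. Group means, fold changes and p-values of the authors' own comparison, made with DESeq2, were deposited beside the FPKM and were not used.

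A gene entered the test if the mean of a group was 1.0 FPKM or more. The log2 of FPKM plus a pseudocount of 0.1 was fitted in limma 3.58.1 (R 4.3.3; lmFit, then eBayes with a trend), two-sided, and p-values were adjusted by Benjamini-Hochberg over the 9794 genes. The pseudocount makes changes of low genes look smaller. Ratios, and after seeing the data single genes, were compared by exact permutation over all 70 assignments. Since FPKM rises in steps of 1 read, whole reads were recovered (within 0.03 reads) for 99.8% of the tested genes and for all 28 members, which had 54 to 6604 reads per library (median 402). Over the genes with recovered reads, the libraries held 7963641 to 10333650 reads, and relative depth was 0.910 to 1.17. The SD expected from read counts covers counting error only. The fit was tested on simulated data.

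The members and lists were chosen with earlier results of these data known. All 28 members are named. Of each companion list, the pair with the highest mean FPKM and every gene with an unadjusted p under 0.05 are named. Of these, 1 gene is not reported here. Promoter stretches are of members with TCACNCCAC, and Srebf2, Insig1 and the overlapping genes Gm43738, Ctsb and Vps51 were added after seeing the data. Alternatives were pseudocounts of 1 and 0.01, no minimum and a minimum of 5 FPKM, median centring, quantile normalization, eBayes without a trend or robust, the replicate number as a block, leaving out each library, and limma-voom on the recovered reads. Python 3.11.15, numpy 2.4.6, pandas 2.3.3, scipy 1.17.1 and matplotlib 3.10.9 were used. Pools come from separate mice, so p-values measure the spread between pools. Coordinates are of GRCm38.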

Additional observations from a re-analysis of the deposited data

How the results depend on the processing

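The 0 members with an adjusted p under 0.05 stayed at 0 in every alternative. The exact permutation test of single members, chosen after seeing the data, gave 0 members with a p under 0.05. That count adds nothing further, since with 4 libraries per group such a p needs groups that do not overlap. Such groups were found in 0 of 28 members and 3.08% of the tested genes. The 0 members with an unadjusted p under 0.05 became 1 (Fdft1) with limma-voom on recovered reads (4.95% of all tested genes) and were 0 to 2 when a library was left out, with Fdft1 and Ebp without Ct replicate 2 (5.08% of all tested genes), and Sc5d and Idi1 without CS replicate 1 (4.89%). Over all alternatives the median log2 fold change of the members ran from -0.004 to 0.045. Of 364 refitted log2 fold changes of single members that the setting could move, 327 kept their sign and their side of the threshold, 5 passed an unadjusted p of 0.05, and 32 changed sign, all with an unadjusted p over 0.05. Scap changed sign with median centring (-0.0025), quantile normalization (-3.05e-07) and limma-voom (-0.0036). With a library left out, sign changes occurred within these ranges of log2 fold change: Hmgcs1 -0.11 to 0.0122, Insig1 -0.0214 to 0.0851, Lss -0.0793 to 0.0756, Tm7sf2 -0.19 to 0.0493, Dhcr7 -0.0515 to 0.0536, Scap -0.042 to 0.0505, Stard4 -0.20 to 0.0862, Fdps -0.0129 to 0.14, Cyp51 -0.0469 to 0.13, Npc2 -0.0714 to 0.0424, Mvk -0.12 to 0.0425, Sqle -0.15 to 0.0466, Ggps1 -0.0444 to 0.18, Hsd17b7 -0.0899 to 0.0566, Insig2 -0.10 to 0.00355. The other members kept their sign: Acat2 0.0159 to 0.41, Pmvk 0.0465 to 0.17, Mvd 0.0281 to 0.22, Idi1 0.19 to 0.39, Fdft1 0.12 to 0.28, Lbr 0.0479 to 0.24, Msmo1 0.0492 to 0.20, Nsdhl 0.0823 to 0.33, Ebp -0.42 to -0.12, Sc5d -0.28 to -0.12, Srebf1 -0.13 to -0.0117, Srebf2 0.017 to 0.12, Npc1 -0.20 to -0.10. The log2 difference of the Insig1 to Insig2 ratio ranged from -0.00223 to 0.18 and changed sign without Ct replicate 1, that of Srebf1 to Srebf2 ranged from -0.19 (without CS replicate 1) to -0.0562 (CS replicate 4), of Tm7sf2 to Lbr from -0.33 (CS replicate 3) to -0.0346 (Ct replicate 2) and of Npc1 to Npc2 from -0.23 (CS replicate 4) to -0.0488 (CS replicate 3). The 1 companion gene with an unadjusted p under 0.05 became 2 with median centring (4.84% of all tested genes), with eBayes without a trend (5.08%) and with limma-voom (4.95%), 3 with robust eBayes (4.78% of all tested genes), and 1 to 4 with a library left out (4.28% to 5.35%). Fasn was among them each time. Of the others, Rabggtb was named for its level and Rce1 after its values were seen, and their calls were singled out after seeing them. Rabggtb was called with robust eBayes, limma-voom and without Ct replicate 2 or CS replicate 4. Rce1 was called with median centring, robust eBayes, the replicate block and without Ct replicate 3, Ct replicate 4 or CS replicate 1. The cause was not tested.

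Same-numbered libraries correlated at 0.012 to 0.161 and others at -0.126 to 0.055, so the highest correlations were between same-numbered libraries. All were low and the labels name no pairs, and the main fit took none. Whether libraries of the same number share a factor was not tested. With the replicate block, 0 members and 2 companion genes had an unadjusted p under 0.05, where 5.33% of all tested genes did, and no ratio passed, where the smallest exact p of the sign-flip test is 0.125. A 1.5-fold change was outside the 95% interval of 24 of 28 members.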
